A study of Mus musculus with 2 samples.

Results

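In single-cell sequencing of retinoid-containing lung cells of the mouse, some cell barcodes held transcripts of capillary endothelium and of fibroblasts side by side. They are called dual barcodes here and were selected on their own measured counts of unique molecular identifiers (UMIs, which mark single captured transcripts). Cells entered the count with 200 or more genes and no more than 10% of UMIs from mitochondrial genes. A dual barcode had 2 or more UMIs of *Gpihbp1* and *Plvap* together and more of these than of *Car4* and *Ednrb*, 3 or more UMIs of *Cdh5*, *Pecam1* and *Egfl7* together, no UMI of *Epcam* or *Ptprc*, and at least 0.15% of its UMIs in 6 stromal genes (*Col1a1*, *Col1a2*, *Col3a1*, *Mfap4*, *Dcn* and *Pdgfra*; this percentage is called S6). These conditions held for 700 of 19622 cells. Library 1 held 75 of them among its 9634 cells, which is 0.778% (exact Clopper-Pearson 95% interval 0.613 to 0.975), and library 2 held 625 among 9988, which is 6.26% (5.79 to 6.75). Since the counts themselves chose these barcodes, their levels of the selecting genes are a description and carry no test.

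The cells came from lungs of wild-type C57BL/6 male mice, 3 months old, without any treatment or transgene, digested with pronase and collagenase. Live cells were sorted for the blue fluorescence of their own stored retinoids through gates on scatter for single cells, and the sources used here do not give the number of mice per library. Both libraries belong to the same condition and were made on separate occasions, so the values of each library are given in place of a mean, and what separates the libraries cannot be told apart from the occasion. The question put to the data was which fibroblast the stromal transcripts resembled, how deep these barcodes were, what retinoid genes they held, and whether any gene lay above what endothelial and stromal cells of the same library would give together.

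Alveolar capillaries consist of general capillary cells, which carry the lipoprotein lipase anchor *Gpihbp1* and the diaphragm protein *Plvap*, and of *Car4* and *Ednrb* positive cells spread over the gas exchange surface, called aerocytes. Alveolar fibroblasts lie directly against these capillaries, and those rich in lipid droplets store vitamin A as retinyl esters made by lecithin:retinol acyltransferase (*Lrat*). Droplet sequencing assigns transcripts to a barcode and not to a cell, so that transcripts of different cells can carry the same barcode.

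The 9669 barcodes deposited for library 1 summed to 48762735 UMIs, and the 10050 of library 2 to 93970185 UMIs. The 9634 and 9988 cells kept had a median of 4480 and 7577.5 UMIs. A total of 23 barcode sequences occurred in both libraries. None of these belonged to a dual barcode of library 1 and 2 to a dual barcode of library 2. Intervals of shares and limits of counts cover counting error only.

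The dual barcodes were set beside a pair of reference groups from the same libraries. The endothelial reference met the same endothelial conditions but had an S6 below 0.1% (42 barcodes in library 1 and 348 in library 2). The stromal reference had an S6 of at least 0.15%, no UMI of *Epcam* or *Ptprc*, and at most 1 UMI each of the *Cdh5* and *Gpihbp1* gene groups (7837 and 7403 barcodes). A further 1 and 77 barcodes met the endothelial conditions with an S6 between these limits and entered neither group.

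The marker genes fitted the description of the dual barcodes, as the selection requires. *Cdh5*, the adhesion molecule of endothelial junctions on chromosome 8 (GRCm38 chr8:104101625-104144511), was detected in 93.3% of the dual barcodes of library 1 and 98.7% of those of library 2, against 0.0638% and 1.13% of the stromal reference. *Gpihbp1* (chr15:75596628-75599481) was detected in 85.3% and 99.4%. *Mfap4*, a protein of elastic fibres (chr11:61485431-61488900), was detected in 93.3% and 98.7%, against 11.9% and 31.6% of the endothelial reference. *Pdgfra*, the receptor that marks lung fibroblasts (chr5:75152292-75198215), was detected in 90.7% and 98.9%. All 4 of these markers were detected together in 53 of 75 dual barcodes of library 1, or 70.7% (59.0 to 80.6), and in 599 of 625 of library 2, or 95.8% (94.0 to 97.3).

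Most dual barcodes lay well inside the limits. The median dual barcode had 7 UMIs of *Gpihbp1* and *Plvap*, 11 of the *Cdh5* group and 22 of the S6 genes in library 1, and 19, 36 and 46 in library 2. S6 reached from the limit to 1.28% in library 1 and to 1.37% in library 2, with medians of 0.382% and 0.320%. At the limits, 5 and 24 dual barcodes had exactly 2 UMIs of *Gpihbp1* and *Plvap*, and 6 and 8 had exactly 3 of the *Cdh5* group. Just outside them, 7 and 7 further barcodes failed by 1 UMI of *Gpihbp1* and *Plvap*, 3 and 5 failed by 1 UMI of the *Cdh5* group, and 1 and 84 failed through a UMI of *Epcam* or *Ptprc*.

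Dual barcodes were deeper than either reference. Their median was 6029 UMIs in library 1, against 1875.5 in the endothelial and 4257 in the stromal reference. In library 2 it was 14610 UMIs, against 4894.5 and 7085. Both libraries thus gave the same order, with dual barcodes above stromal and stromal above endothelial barcodes. The sum of both reference medians was 6132.5 UMIs in library 1 and 11979.5 in library 2, and the median of the dual barcodes was 0.983 and 1.22 times that sum. With means in place of medians, the ratios were 0.933 and 1.06. More than the 90th percentile of stromal barcodes was reached by 26.7% of the dual barcodes of library 1 and 63.7% of those of library 2, against 0% and 16.4% of the endothelial reference. The minimum counts of the rule apply to the dual barcodes and the endothelial reference alike, and the part that more than 1 cell per barcode had in these depths was not tested. Detected genes followed the same order, with a median of 2498 and 4408 in dual barcodes, 1076 and 2141.5 in the endothelial and 1820 and 2636 in the stromal reference. The mitochondrial percentage differed little, at a median of 1.26% and 2.56% in dual barcodes and 1.20% and 2.25% in the stromal reference.

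**Figure D1:**
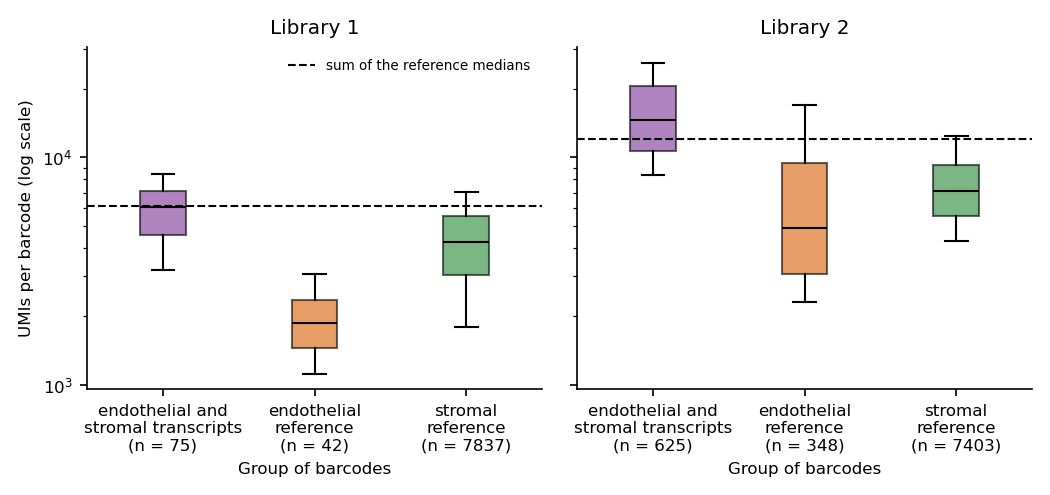
UMIs per barcode on a log axis for dual barcodes and both references in each library. Boxes span the quartiles, whiskers the 10th and 90th percentiles, and the line in each box is the median. The dashed line is the sum of the reference medians, 6132.5 and 11979.5 UMIs, against medians of 6029 and 14610 in the dual barcodes.

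Stromal transcripts at this level were common among capillary barcodes. Of 118 capillary barcodes of any S6 in library 1, 63.6% (54.2 to 72.2) were dual, and of 1050 in library 2, 59.5% (56.5 to 62.5). Barcodes led by *Car4* and *Ednrb* reached the same S6 in 1 of 12, or 8.33% (0.211 to 38.5), in library 1 and in 89 of 196, or 45.4% (38.3 to 52.7), in library 2. Epithelial barcodes, chosen by 2 or more UMIs of *Epcam*, reached it in 9.91% (7.71 to 12.5) and 41.5% (34.1 to 49.1). Immune barcodes, chosen by 2 or more UMIs of *Ptprc*, reached it in 27.6% (21.1 to 35.02) and 35.5% (30.4 to 41.0). S6 is the value the rule used, so these shares are a description. In each class of both libraries the barcodes at or above the limit were deeper than those with an S6 below 0.1%, for instance 14279 against 9863 UMIs at the median in epithelial barcodes of library 1.

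How much of each kind of transcript a dual barcode held was measured with lists of 20 endothelial and 20 stromal genes that the rule did not use. The endothelial list, with the tight junction gene *Cldn5* and the receptors *Tek*, *Kdr* and *Flt1*, stood at 7966 CPM (the gene's share of all UMIs of a group, scaled to 1000000) in the dual barcodes of library 1, against 22890 CPM in the endothelial reference, which is a part of 0.348. In library 2 it stood at 11143 against 19552 CPM, a part of 0.570. The stromal list, with collagen VI genes, *Bgn* and *Inmt*, stood at 15101 against 20389 CPM in the stromal reference of library 1, a part of 0.741, and at 11753 against 19829 CPM in library 2, a part of 0.593. The parts added up to 1.09 and 1.16. Any mixture of the references adds up to about 1, and slightly more because each reference holds some of the other list. Solved with these backgrounds, the sums were 1.05 and 1.08.

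In UMIs per barcode, a dual barcode held about as much of each list as a barcode of the matching reference. The endothelial list gave 47.9 UMIs per dual barcode against 46.1 per endothelial barcode in library 1, and 180 against 145 in library 2. The stromal list gave 90.7 UMIs against 90.2 per stromal barcode in library 1, and 190 against 156 in library 2. Library 1 thus gave ratios of 1.04 for the endothelial and 1.01 for the stromal list, and library 2 gave 1.25 and 1.22.

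Within the dual barcodes, the more of the one list a barcode held, the less it held of the other. Spearman's correlation between both parts was -0.641 over 75 barcodes of library 1 and -0.669 over 625 of library 2, where both parts share the barcode's total as denominator. The endothelial part ran from 0.153 to 0.611 between the 10th and 90th percentile in library 1 and from 0.231 to 0.840 in library 2. The stromal part ran from 0.450 to 0.969 and from 0.379 to 0.880. Both parts exceeded 0.1 in 69 of 75 (92.0%) and 615 of 625 (98.4%) dual barcodes. The stromal part was the larger in 86.7% of the dual barcodes of library 1 and 58.2% of those of library 2. UMIs per barcode and S6 were hardly related among dual barcodes (Spearman's correlation 0.157 and -0.109).

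**Figure D2:**
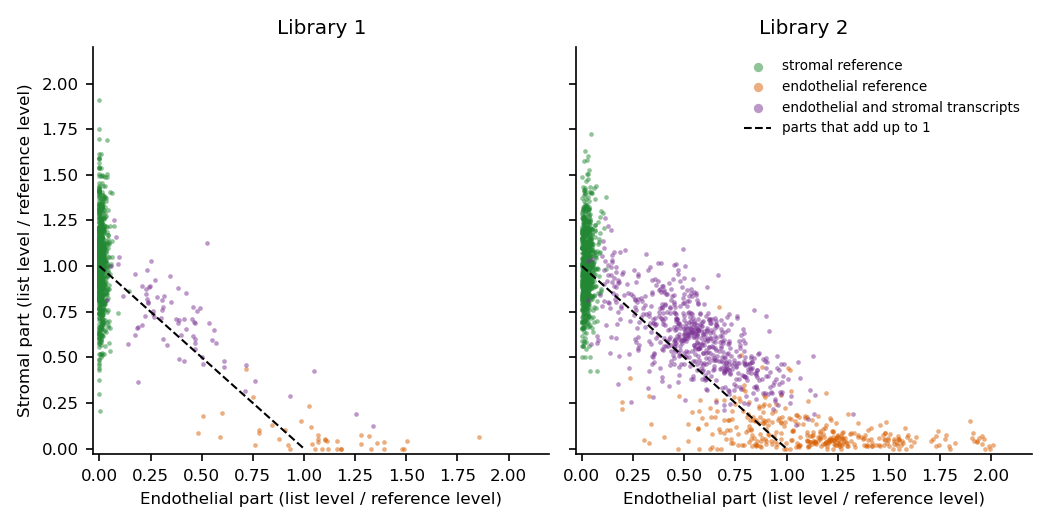
Endothelial part against stromal part, each the level of a 20-gene list over its level in the matching reference, with 1 point per barcode and a thinned set of 871 and 823 stromal barcodes (1 endothelial barcode of library 2 lies beyond the axes). Dual barcodes lie between both references, scattered about the dashed line on which the parts add up to 1, with sums between 0.891 and 1.27 from the 10th to the 90th percentile in library 1 and between 0.945 and 1.36 in library 2.

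The list genes behaved much alike. All 19 measured genes of the endothelial list, that is with 10 or more UMIs in the dual barcodes of both libraries, lay between both references in each library. Over all 6049 measured genes, 57.0% and 76.9% lay between them in libraries 1 and 2, and 47.3% in both. The lists hold genes that mark 1 cell type, which lie between the references in almost any mixture of them, so these counts are a description. *Cldn5* stood at 1276 CPM in dual, 3945 in endothelial and 0.865 in stromal barcodes of library 1, and at 1640.4, 2974 and 3.08 CPM in library 2. *Ptprb*, the vascular endothelial phosphatase, stood at 661, 1772 and 0.951 CPM, and at 1038, 1753 and 2.17 CPM. Of the 20 stromal genes, 18 lay between the references in library 1 and 20 in library 2. The exceptions of library 1 were *Ces1d* and *Gyg*, at 544 and 679 CPM in dual barcodes against 466 and 633 CPM in the stromal reference.

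Over all genes, the dual barcodes resembled the sum of 1 endothelial and 1 stromal barcode more closely than either alone. This equal sum adds the mean UMIs per barcode of both references gene by gene and is scaled to CPM. It covered 3136 genes in library 1 and 3492 in library 2 that had 50 CPM or more in the sum, 10 UMIs or more in the dual barcodes and no place in the rule. A further 14 and 3 genes with that level had fewer UMIs and were left out. The median log2 ratio of dual barcodes to the equal sum was 0.0075 in library 1 and 0.04 in library 2. Within 1.5-fold of the sum lay 92.4% and 98.8% of the genes, against 50.8% and 76.8% within 1.5-fold of the endothelial and 78.0% and 71.0% of the stromal reference. Pearson's correlation of log2 levels across these genes was 0.968 and 0.984 with the equal sum, 0.589 and 0.846 with the endothelial, and 0.732 and 0.618 with the stromal reference. Genes are not independent replicates, and these values describe the libraries. The endothelial reference held 84667 UMIs in library 1 and 2572058 in library 2, against 34682865 and 58409000 in the stromal reference. Counting error is therefore larger in the endothelial levels, most of all in library 1. The part that this had in the comparison with either reference alone was not tested.

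**Figure D3:**
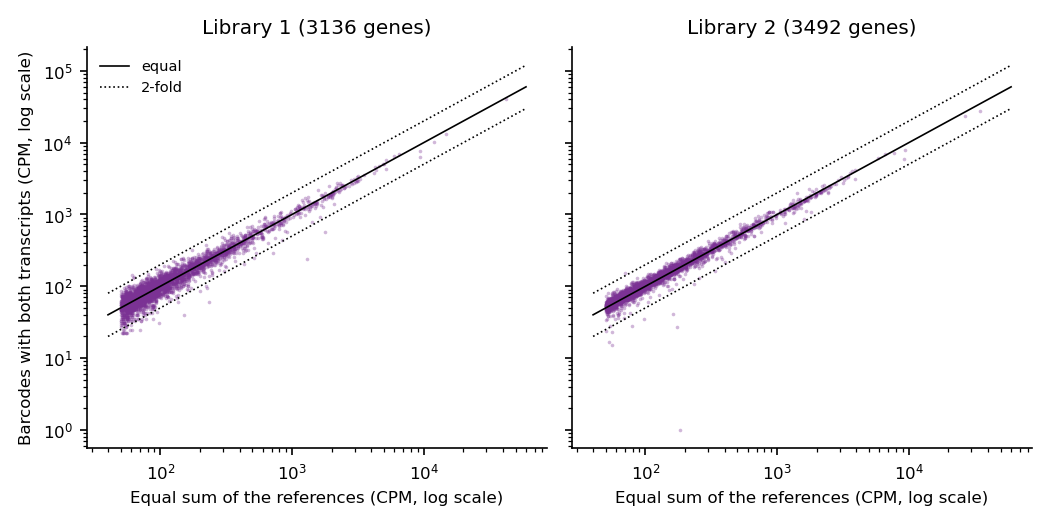
Level of each gene in the dual barcodes against the equal sum of both references (CPM, log axes), with 1 point per gene. Solid lines mark equal levels and dotted lines 2-fold differences, and 92.4% of 3136 genes and 98.8% of 3492 genes lie within 1.5-fold of the sum.

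Few genes left the sum by 2-fold or more. In library 1, 3 genes lay over 2-fold above it and 34 over 2-fold below it, and in library 2 it was 1 and 11. The genes above it, named after their values were seen, were *Gucy1a1*, *Smagp* and *Zbtb7a* in library 1 and *Ager*, a marker of alveolar type 1 cells, in library 2. *Gucy1a1*, a subunit of the nitric oxide receptor, stood at 142 CPM against a sum of 60.5 in library 1 and at 166 against 127 in library 2. *Ager* stood at 153 CPM against a sum of 69.8 in library 2 and had no UMI in the dual barcodes of library 1. Of 2836 genes covered in both libraries, 1 was beyond 2-fold in each, the microfibril gene *Mfap5*, at 206 against 435 CPM and at 164 against 335 CPM.

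A gene above both references is above every weighted sum of them, so dual barcodes were compared with each reference on UMIs summed per library and group. The test was edgeR's quasi-likelihood test with the library as a block, with the larger of both p-values per gene, adjusted over 12585 genes by the Benjamini-Hochberg method. No gene was above both references at an adjusted p below 0.05 (0 of 12585, 0%), DESeq2 called 0 as well, and edgeR gave 4 at an unadjusted p below 0.05 (0.0318%). These p-values measure the spread between 2 libraries, and the expression of the rule's own genes entered the choice of the groups. By size alone, 0 of 6056 genes with 10 UMIs in the dual barcodes of both libraries (0%) were at least 2-fold above the higher reference in each library. The 4 genes, named after their values were seen, were *Tmc6*, *Pf4*, *S100a9* and *Nrgn*. *Pf4*, platelet factor 4, stood at 11.1 CPM in dual barcodes, 0 in the endothelial and 4.30 in the stromal reference of library 1, and at 47.6, 24.9 and 5.89 CPM in library 2. *Nrgn*, which platelets also carry, stood at 11.1, 0 and 1.64 CPM, and at 22.7, 8.16 and 1.97 CPM (edgeR adjusted p = 0.0624, the lowest of the 4).

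The choice of endothelial reference moved this count. With an S6 of exactly 0 in the endothelial reference, which left 35 and 180 barcodes in it, 27 genes were above both references. They included the pericyte genes *Cox4i2*, *Higd1b*, *Postn*, *Notch3* and *Cspg4* and the epithelial genes *Sftpb*, *Sftpd* and *Ager*, and 3 of the genes (*Higd1b*, *Ndufa4l2* and *Olfr655*) passed the 2-fold size rule. *Cox4i2* stood at 130 CPM in the dual barcodes of library 2 and at 174 CPM in the whole endothelial reference of that library. With endothelial barcodes that held red cell or lymphatic transcripts left out of the reference, an alternative chosen after the data were seen, 3 genes were above both, *Pf4*, *Nrgn* and *Ppbp*, which are all platelet transcripts.

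Below both references, 15 genes passed the test (0.119% of 12585), and 31 did at an unadjusted p below 0.05 (0.246%). DESeq2 called 2 genes below both, thinning to 2000 UMIs per barcode left 4, and a fit without the library as a block gave 0, so these calls depend on the fit. In the dual barcodes of library 1, 9 of the 15 had no UMI at all. The globin genes of red cells took 4 places. *Hbb-bs* had 0 and 6 UMIs in the dual barcodes of libraries 1 and 2, 1 and 7072 in the endothelial and 1245 and 7322 in the stromal reference. Of the 10790 globin UMIs in the endothelial reference of library 2, 10768 lay in 1 barcode, and 10905 of the 11697 in the stromal reference of that library lay in 1 barcode, so these calls rest on single barcodes. *Sftpc*, surfactant protein C of alveolar type 2 cells, was called below both (log2 fold change -1.41 ± 0.27 to the endothelial and -1.18 ± 0.32 to the stromal reference, SE, edgeR adjusted p = 0.00599), but its level of 1133 CPM in library 2 lay between the references at 3108 and 286 CPM. *AY036118* lay below both in each library, at 794 against 1878 and 1198 CPM in library 1 and at 875 against 1627 and 1569 CPM in library 2 (log2 fold changes -0.94 ± 0.27 and -0.85 ± 0.26, edgeR adjusted p = 0.0227). *Plac8* passed the test as well (edgeR adjusted p = 0.0408), at 35.5, 189 and 28.0 CPM in dual, endothelial and stromal barcodes of library 1 and at 19.5, 41.2 and 40.7 CPM in library 2. The other 8 called genes stayed below 50 CPM in every group as a mean of both libraries, with the smaller of both log2 fold changes between -2.57 and -0.88. Of all 15, 6 lay below both references in each library, and besides *Hbb-bs* and *AY036118* these were *Fgl2*, *Cxcl10*, *Ch25h* and *Ptgs2*, named after their values were seen. In library 1 the endothelial reference held 1 UMI of *Hbb-bs*, 2 each of *Fgl2* and *Cxcl10*, 5 of *Ch25h* and 6 of *Ptgs2*. Only *AY036118* had more there, at 159 UMIs.

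Relative to the stromal reference, the dual barcodes were richer in alveolar than in adventitial fibroblast genes. *Dcn*, the proteoglycan decorin of matrix-rich fibroblasts (chr10:97479609-97518143), stood at 28.8 and 68.6 CPM in dual barcodes against 574 and 406 CPM in the stromal reference. *Tcf21* (chr10:22817281-22820174), a transcription factor of alveolar fibroblasts, and *Npnt* (chr3:132881745-132950291), a matrix ligand of integrin alpha 8, together stood at 2458 and 1862 CPM against 2588 and 2898 CPM. The log2 ratio of *Dcn* to *Tcf21* and *Npnt* was -6.41 and -4.76 in dual barcodes and -2.17 and -2.83 in the stromal reference. It was lower in dual barcodes by 4.24 in library 1 and by 1.93 in library 2 on the log2 scale. *Dcn* is among the S6 genes that chose both groups, so this difference is given without a test.

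Counted by barcode, and again as a description, the order was the same. *Tcf21* or *Npnt* without *Dcn* was found in 62 of 75 dual barcodes of library 1, or 82.7% (72.2 to 90.4), and in 533 of 625 of library 2, or 85.3% (82.3 to 88.0). In the stromal reference it was 74.8% (73.8 to 75.8) and 74.1% (73.1 to 75.1). The endothelial reference, at lower depth, also showed it, in 14.3% (5.43 to 28.5) and 42.8% (37.6 to 48.2). *Dcn* with neither of the other genes was found in 0 of 75 and 0 of 625 dual barcodes (upper bounds of the exact intervals 4.80% and 0.588%), and in 0.638% and 0.162% of stromal barcodes. *Dcn* exceeded *Tcf21* and *Npnt* in 1 dual barcode of library 1 (1.33%, 0.0338 to 7.21) and 6 of library 2 (0.960%, 0.353 to 2.08), against 9.07% (8.45 to 9.73) and 5.97% (5.44 to 6.53) of stromal barcodes. Thinned to 2000 UMIs each, which left out 4 and 1 dual barcodes, it exceeded them in 0 of 71 and 7 of 624 dual barcodes (1.12%, 0.452 to 2.30), against 9.62% and 6.12% of stromal barcodes.

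The wider lists of both fibroblast types gave the same order. All 12 genes of the alveolar list were measured, and their median ratio to the stromal reference was 0.83 in library 1 and 0.64 in library 2. *Tcf21* was at 0.988 and 0.648 times its stromal level, *Ces1d*, a lipid-handling carboxylesterase, at 1.17 and 0.763 times, and *Wnt2*, a signal to the alveolar epithelium, at 1.08 and 0.695 times. The lowest ratios in the list were those of *Fgf10* (0.442 and 0.388) and *Gpc3* (0.490 and 0.425). Of the adventitial list 7 of 12 genes were measured, with a median ratio of 0.41 and 0.43, *Dcn* and *Ly6c1* included. By the summed level of all 12 genes the lists differed less. The alveolar list summed to 13333 and 11037 CPM in dual against 16754 and 17387 CPM in stromal barcodes. The adventitial list summed to 15086 and 8975 CPM against 25132 and 16672 CPM. *Igfbp6* was at 0.294 and 0.292 times its stromal level, *Mfap5* at 0.332 and 0.264 and *Dpt* at 0.415 and 0.442. Over all 6049 measured genes the median ratio to the stromal reference was 1.12 and 1.06. *Ly6c1* of the adventitial list, at 135 and 261 times its stromal level, stood at 1146 and 1713 CPM in the endothelial reference and was an endothelial gene here. The unmeasured adventitial genes *Pi16* and *Ccl11* had no UMI in the dual barcodes of library 1 and stood at 0.0106 and 0.0333 times their stromal level in library 2. Of the *Hhip* and *Aspn* fibroblast list 2 of 8 genes were measured, and its summed level was 84.3 and 113 CPM in dual barcodes against 138 and 174 CPM in the stromal reference.

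**Figure D4:**
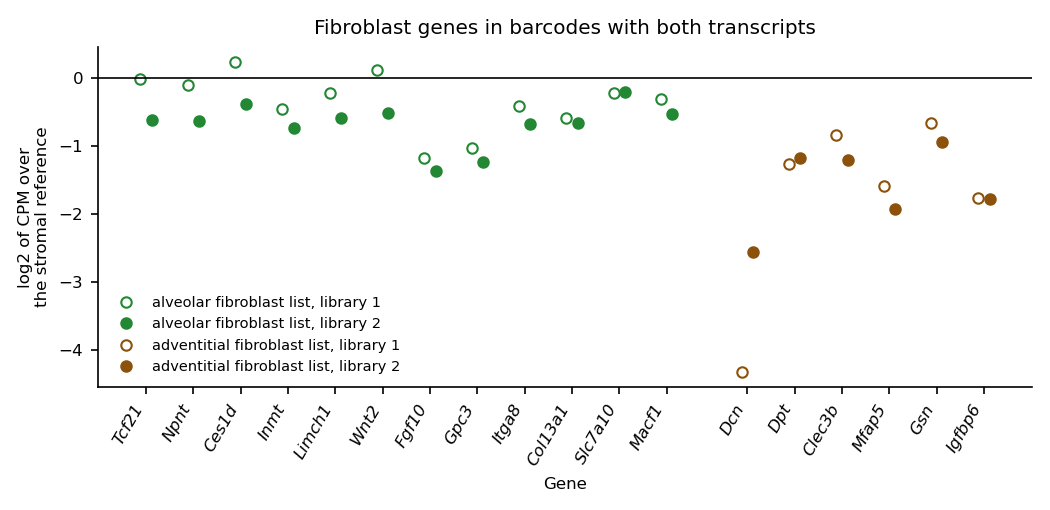
Log2 of the level in dual barcodes over the level in the stromal reference (CPM) for measured genes of the alveolar and adventitial fibroblast lists, open circles for library 1 and filled circles for library 2, without *Ly6c1*. Alveolar genes lie mostly near or just below 0, and *Dcn* lies at the bottom, at 0.0503 and 0.169 times its stromal level.

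In library 2, the *Dcn* of the dual barcodes lay mostly in those with the highest S6. Of its 694 *Dcn* UMIs, 547 were in the 101 barcodes with an S6 of 0.5% or more, where it reached 353 CPM. In the 249 barcodes with an S6 between 0.3% and 0.5% it was at 22.0 CPM, and in the 92 between 0.15% and 0.2% at 5.52 CPM. *Dcn* itself raises S6, so the order of these bands is in part set by the rule. *Tcf21* rose less steeply over the same bands, from 329 through 488 to 601 CPM. Library 1 had 13 *Dcn* UMIs in its dual barcodes, 3 of them in the highest band.

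Retinoid genes of both cell types were present in the dual barcodes. *Lrat*, the enzyme that esterifies retinol for storage (chr3:82892579-82903973), stood at 244 CPM in dual barcodes, 47.2 in the endothelial and 317 in the stromal reference of library 1, and at 80.5, 24.9 and 141 CPM in library 2. The dual barcodes thus lay between both references, and the endothelial values rest on 4 and 64 UMIs. Against the equal sum, *Lrat* was at 1.05 and 0.949 times. *Aldh1a1*, which oxidizes retinal to retinoic acid (chr19:20492715-20643465), stood at 701, 35.4 and 712 CPM and at 1082, 170 and 1653 CPM, or 1.40 and 1.16 times the equal sum.

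*Cyp26b1*, the retinoic acid hydroxylase (chr6:84571414-84593908), was high in the endothelial reference. It stood at 88.8 CPM in dual barcodes, 307 in the endothelial and 1.87 in the stromal reference of library 1, and at 39.4, 69.6 and 1.28 CPM in library 2, or 0.911 and 1.15 times the equal sum. *Cd36*, a fatty acid and lipoprotein receptor of capillaries (chr5:17781690-17888801), stood at 546, 1571 and 6.95 CPM and at 1066, 1784 and 7.29 CPM, or 1.10 and 1.23 times. *Lpl*, the lipoprotein lipase that *Gpihbp1* anchors, stood at 62.1, 94.5 and 54.8 CPM and at 308, 482 and 54.8 CPM.

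Per barcode, *Lrat* was detected in 66.7% (54.8 to 77.1) of the dual barcodes of library 1 and 54.2% (50.2 to 58.2) of library 2. In the stromal reference it was 57.6% (56.5 to 58.7) and 43.4% (42.3 to 44.6), and in the endothelial reference 4.76% (0.582 to 16.2) and 12.1% (8.84 to 16.0). Epithelial and immune barcodes with an S6 below 0.1%, at a median of 9245 and 6310 UMIs, held it in 1.91% and 1.34%, which serves as the background for a gene these cells should lack. Thinned to 2000 UMIs, the share was 35.2% (24.2 to 47.5) and 15.7% (12.9 to 18.8) of dual, 41.2% (39.99 to 42.3) and 18.4% (17.5 to 19.3) of stromal and 5.88% (0.149 to 28.7) and 4.32% (2.38 to 7.14) of endothelial barcodes. Thinning kept only barcodes of 2000 UMIs or more, which left 17 of the 42 endothelial barcodes of library 1 and 324 of the 348 of library 2. At equal depth the dual share was thus no longer above the stromal one, and the intervals of these 2 groups overlapped in both libraries. Barcodes are not replicates, so an overlap of intervals here is a description and no test between groups. *Cyp26b1*, thinned, was found in 14.1% (6.97 to 24.4) and 6.09% (4.35 to 8.26) of dual against 23.5% (6.81 to 49.9) and 10.2% (7.12 to 14.0) of endothelial barcodes, with overlapping intervals. *Lrat* and *Cyp26b1* were detected together in 15 of 75 dual barcodes, or 20% (11.6 to 30.8), and in 104 of 625, or 16.6% (13.8 to 19.8). The endothelial reference held both in 0 of 42 barcodes, with an upper bound of 8.41%, and in 10 of 348, or 2.87% (1.39 to 5.22), and the stromal reference in 0.600% and 0.527%, at lower depths.

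**Figure D5:**
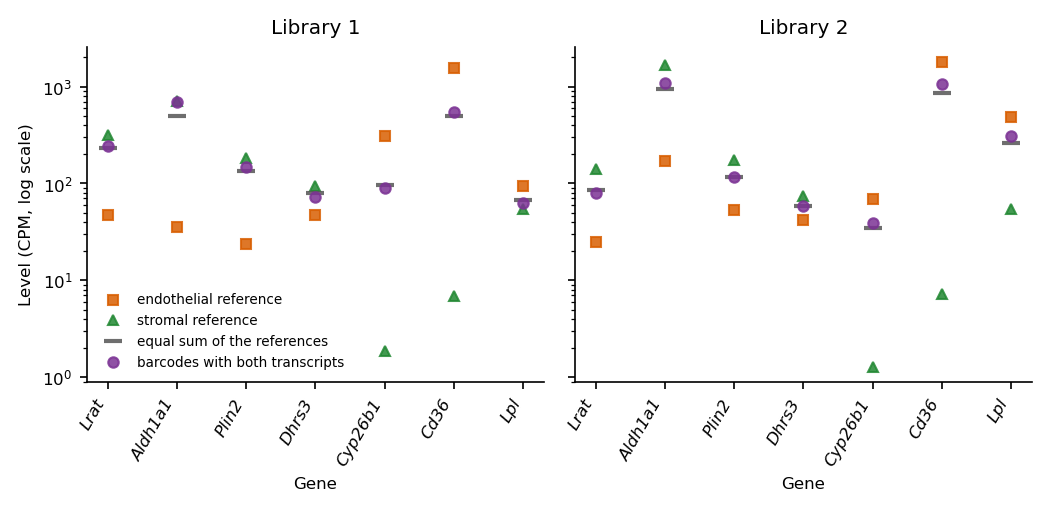
Levels of 7 retinoid and lipid genes (CPM, log axis) in dual barcodes (circles), the endothelial (squares) and stromal reference (triangles) and the equal sum of both (bars) in each library. *Lrat* and *Plin2* are higher in stromal and *Cyp26b1* and *Cd36* in endothelial barcodes, and the circles lie within 1.5-fold of the bars.

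Of the 30 retinoid and lipid genes listed, 14 were measured, and their median ratio to the equal sum was 1.07 and 1.08, with 11 and 14 of them within 1.5-fold. Over all 6049 measured genes the medians were 1.07 and 1.03, with 82.7% and 99.0% within 1.5-fold. *Plin2*, a lipid droplet coat protein, stood at 149 CPM in dual, 23.6 in endothelial and 183 in stromal barcodes of library 1 and at 118, 53.3 and 174 CPM in library 2. The largest ratio of library 1 was that of *Rara*, a retinoic acid receptor, at 2.56 (1.10 in library 2), where library 1 had 23 UMIs in dual barcodes and 0 in the endothelial reference. *Rbp4*, the secreted retinol carrier, was not measured by this limit, with 3 and 153 UMIs, and stood at 0.0335 and 0.142 times its stromal level. The retinal-oxidizing *Aldh1a2* and *Aldh1a3* had 0 UMIs in the dual barcodes of library 1 and 0 and 2 UMIs in those of library 2.

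Across the S6 bands of library 2, *Lrat* rose while *Cyp26b1* and *Cd36* fell. S6 is the stromal share that the rule used, so such an order is in part set by the banding and is a description only. *Lrat* was at 46.0 CPM in the 92 dual barcodes with an S6 between 0.15% and 0.2%, at 62.8 CPM between 0.2% and 0.3%, at 90.7 CPM between 0.3% and 0.5% and at 124 CPM at 0.5% or more. *Cyp26b1* went the other way, at 66.9, 47.4, 28.2 and 23.9 CPM, and so did *Cd36*, at 1439, 1225, 954 and 665 CPM. The endothelial part fell from 0.756 to 0.378 and the stromal part went from 0.419 to 0.755 over the same bands. Just below the limit, the 77 barcodes with an S6 between 0.1% and 0.15% had an endothelial part of 0.812, a stromal part of 0.364 and *Lrat* at 40.3 CPM, close to the lowest band inside it. Their median depth of 16538 UMIs was close to that band's 17266. In library 1 the lowest band held 9 barcodes and 12 *Lrat* UMIs, and *Lrat* showed no order there, at 315, 150, 281 and 240 CPM.

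Many dual barcodes of library 2 also held transcripts of a further cell type. The pericyte genes *Cox4i2*, *Cspg4*, *Notch3*, *Postn* and *Rgs5*, chosen after their values were seen, gave 3 or more UMIs in 131 of 625 dual barcodes, or 21.0% (17.8 to 24.4). In the endothelial reference with an S6 above 0 it was 36 of 168, or 21.4% (15.5 to 28.4), in that with an S6 of 0 it was 2 of 180, or 1.11% (0.135 to 3.96), and in the stromal reference 0.324% (0.208 to 0.482). These groups differed in depth, with medians of 14610 UMIs in dual, 8177 and 3646 in these endothelial and 7085 in stromal barcodes. The part that depth had in these shares was not tested. In library 1 it was 1 of 75 dual barcodes and 0 of 42 endothelial barcodes. *Cox4i2*, *Cspg4*, *Notch3* and *Postn* were among the genes called above the endothelial reference with an S6 of 0. The low share in that reference was thus in part set by the choice of genes. The 131 dual barcodes carried 94.0% of the pericyte UMIs of the group and were deeper, with a median of 19991 UMIs against 13598 in the other 494. Their *Tcf21* and *Npnt* level was 1540 CPM against 1980 CPM, and their endothelial and stromal parts were 0.615 and 0.499 against 0.553 and 0.627.

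Transcripts of other cell types were found less widely. The alveolar type 1 genes *Ager* and *Aqp5* gave 3 or more UMIs in 75 dual barcodes of library 2, or 12% (9.56 to 14.8), against 13.1% (8.39 to 19.2) of its endothelial reference with an S6 above 0 and 1.27% (1.03 to 1.55) of its stromal barcodes. In library 1 none of the 75 did. The platelet genes *Pf4* and *Ppbp* did so in 1 dual barcode of library 1 and in 24 of library 2, or 3.84% (2.48 to 5.66), against 0.595% (0.0151 to 3.27) of the endothelial reference of library 2 with an S6 above 0 and 1.67% (0.345 to 4.79) of that with an S6 of 0. Their summed level was 63.3 CPM in dual barcodes, 5.67 in the former and 89.1 in the latter. The macrophage genes *C1qa*, *C1qb*, *Tyrobp* and *Fcer1g* did so in 0 and in 7, or 1.12% (0.451 to 2.29). Without all dual barcodes that met any of these limits, 73 of library 1 and 424 of library 2 (67.8%) were left. Their median depth was 6025 and 13166 UMIs, 0.982 and 1.10 times the sum of the reference medians, and their endothelial part was 0.346 in library 1 and 0.564 in library 2, with stromal parts of 0.746 and 0.631.

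The summed pericyte, epithelial and immune lists lay between or below the references. The pericyte and smooth muscle list of 12 genes summed to 570 and 896 CPM in dual barcodes, 47.2 and 944 in the endothelial and 642 and 617 in the stromal reference. The epithelial list of 12 genes summed to 537 and 2013 CPM, against 1028 and 4650 and 2013 and 489 CPM. The immune list summed to 342 and 627 CPM, against 1146 and 1554 and 517 and 183 CPM, and *Cd3d* of T cells had no UMI in any dual barcode. The mesothelial genes *Msln*, *Upk3b* and *Wt1* had no UMI in dual or endothelial barcodes, and the list of 9 red cell, platelet and mesothelial genes summed to 11.1 and 65.7 CPM in dual, 11.8 and 4227 in endothelial and 64.0 and 207 in stromal barcodes. Lymphatic *Ccl21a* and *Prox1* were at 27.0 and 0.692 CPM in the dual barcodes of library 2, against 356 and 10.5 CPM in its endothelial reference, and had no UMI in dual barcodes of library 1.

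The 10 genes of the general capillary list, of which *Gpihbp1* and *Plvap* belong to the rule, were all measured and lay between both references in each library, with a median ratio to the equal sum of 1.04 and 1.17. Over all 6049 measured genes, 47.3% lay between the references in both libraries. *Kit*, a receptor of general capillary cells, stood at 206 CPM in dual and 579 in endothelial barcodes of library 1 and at 144 and 254 CPM in library 2. *Hilpda*, a lipid droplet protein, stood at 264 and 898 CPM and at 367 and 638 CPM. Of the aerocyte list 7 of 10 genes were measured, with a median ratio of 1.43 and 1.27. The whole aerocyte list, with *Car4* and *Ednrb* that the rule held below *Gpihbp1* and *Plvap*, summed to 1118 CPM in dual, 673 in endothelial and 891 in stromal barcodes of library 1 and to 1859, 1960 and 1011 CPM in library 2, and 4 and 1 of the measured genes were above both references. The aerocyte gene *Emp2* stood at 495 CPM in dual, 319 in endothelial and 359 in stromal barcodes of library 1 and at 740, 768 and 287 CPM in library 2. A UMI of *Car4* or *Ednrb* was present in 14.7% and 64.3% of dual barcodes. The von Willebrand factor gene *Vwf* of larger vessels was low in the dual barcodes, at 0.450 and 0.704 times the equal sum, and the median of the 8 measured genes of the arterial, venous and lymphatic list was 0.80 and 0.93.

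Genes through which capillaries and fibroblasts meet were held on both sides. Of 18 junction and adhesion genes 14 were measured, and all 14 lay within 1.5-fold of the equal sum in both libraries, with medians of 1.04 and 1.14. So did 82.7% and 99.0% of all 6049 measured genes in libraries 1 and 2. *Cdh5* and *Pecam1* of this list belong to the rule. *Cdh11*, the fibroblast cadherin, stood at 275, 11.8 and 380 CPM in dual, endothelial and stromal barcodes of library 1 and at 193, 22.6 and 325 CPM in library 2. *Itga8*, the receptor subunit for *Npnt*, stood at 517, 23.6 and 693 CPM and at 534, 71.9 and 857 CPM. Of 21 signal and receptor genes 19 were measured, of which 15 and 19 lay within 1.5-fold of the equal sum. *Pdgfra*, *Gpihbp1* and *Ednrb* of this list belong to the rule. The ligand *Pdgfb* was higher in endothelial barcodes, at 39.9, 154 and 0.461 CPM and at 128, 271 and 0.616 CPM, and its partner ligand gene *Pdgfa* stood at 44.4, 11.8 and 31.5 CPM and at 42.6, 47.4 and 29.9 CPM. *Angpt1*, the ligand of *Tek*, was higher in stromal barcodes, at 175, 47.2 and 211 CPM and at 200.1, 54.0 and 266 CPM, and *Tek* itself in endothelial barcodes, at 175, 449 and 1.499 CPM and at 241, 411 and 1.85 CPM.

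Of 14 genes linked to a transition from endothelium to mesenchyme 8 were measured, with medians of 1.07 and 1.13 relative to the equal sum and 6 and 8 of them within 1.5-fold. Over all 6049 measured genes, 82.7% and 99.0% lay within 1.5-fold. *Snai2* stood at 42.2, 0 and 40.9 CPM in dual, endothelial and stromal barcodes of library 1 and at 48.1, 15.9 and 60.9 CPM in library 2. *Zeb1* stood at 73.2, 35.4 and 39.1 CPM and at 136, 147 and 59.8 CPM, so that it was above both references in library 1 and between them in library 2. *Fn1*, fibronectin, stood at 592, 35.4 and 762 CPM and at 660, 78.1 and 939 CPM. *Acta2*, smooth muscle actin, had 6 and 168 UMIs in the dual barcodes and stood at 16.6 CPM in library 2, against 25.3 in the endothelial and 78.6 in the stromal reference.

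Genes that respond to tissue digestion lay mostly near the equal sum. The 11 measured of 13 immediate early genes had a median ratio to the equal sum of 1.10 and 0.89, and all 11 and 10 of them lay within 1.5-fold. Over all 6049 measured genes, 82.7% and 99.0% lay within 1.5-fold. *Fos* stood at 6554 CPM in dual, 4629.9 in endothelial and 6559 in stromal barcodes of library 1 and at 1981, 1382 and 3445 CPM in library 2. The 8 measured of 10 heat shock genes had medians of 1.09 and 1.01. Of 12 cell cycle genes 1 was measured, *Pcna*, at 1.19 and 1.14 times the equal sum. *Mki67*, the proliferation marker, had 0 and 87 UMIs in dual barcodes, and in library 2 stood at 8.60 CPM against 26.4 in the endothelial and 2.02 in the stromal reference. Over all 22 lists, 150 of 250 genes were measured. None of the 150 exceeded both references in each library, as 417 of 6049 measured genes (6.89%) did over the whole table, and 118 lay between the references in both, against 2862 over the whole table (47.3%). Most of the lists were made of genes that mark a single cell type, whereas the whole table was not.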

How the data were processed

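Live UV-positive lung cells were sorted, prepared with a 10x Genomics 3′ kit and sequenced as 2 libraries. The authors deposited UMI counts per gene and barcode as filtered matrices, and the submitters' processing notes name Cell Ranger 5.0.1 and the mm10 build. The annotation release used for counting is not given in the sources used here. The dual barcodes, references and gene lists were chosen with earlier results of these data known.

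Counts were summed per library and group and scaled to CPM with no pseudocount. Intervals of shares are exact Clopper-Pearson 95% intervals. Thinning drew 2000 UMIs per barcode without replacement. No doublet caller was run and no barcode was removed as a doublet. Genes were tested with edgeR 4.0.16 (quasi-likelihood, TMM, library as a block, R 4.3.3), with the larger p of both references and adjustment by the Benjamini-Hochberg method across the whole table. The step was tested on simulated data. The summed counts of a gene rest on 2 libraries, which is the number of replicates in each test, and p-values measure only their spread. DESeq2 1.42.0 was an alternative. Named genes were those of the rule and of 22 gene lists, with values for genes at 10 or more UMIs in the dual barcodes of both libraries, and up to 10 called genes each way with 50 CPM or more in their highest group. Other genes given with values were chosen after their values were seen. Gene positions are from GENCODE's annotation of GRCm38, which is mm10. Other alternatives changed the limits of the rule, the references, the scaling, the filter on low counts and the block, and left out either library. A gene of the retinoid list is not reported here by name. Other scripts used Python 3.11.15, numpy 2.4.6, pandas 2.3.3, scipy 1.17.1 and matplotlib 3.10.9.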

Additional observations from a re-analysis of the deposited data

How the results depend on the processing

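Of 92 recomputed values, 76 stayed within the spread between the libraries or, for counts of genes or barcodes, within 1.5 times. The depth ratio lay on both sides of 1 and the *Lrat* ratio on both sides of 0 among them. With 2 libraries, leaving out either always stays within that spread for the share, depth ratio, *Dcn* ratio, sum of parts and *Lrat*. The *Dcn* ratio does not use the endothelial reference, so a change of that reference could not move it. These values count among the 76 but show no stability. With an S6 limit of 0.3% the dual barcodes numbered 402 in place of 700 and made up 38.7% of capillary barcodes as a mean of both libraries, with 0.1% they made up 65.6%, and by the limit used 61.5%. Genes above both references numbered 0, but 2 with S6 of 0.1% or more (*Ccl4* and *Nrgn*), 1 against alveolar stromal barcodes without *Dcn* (*Dcn* itself, which that choice sets to 0), 27 against endothelial barcodes with an S6 of 0, and 3 against endothelial barcodes without red cell or lymphatic transcripts, an alternative chosen after seeing the data. Against those same references, 1 and 3 genes for the alveolar and S6 of 0 choices were 2-fold above both in each library, where the size rule otherwise gave 0. Within a single library it gave 53 to 66 genes. Genes below both numbered 15, and 27 with S6 of 0.3% or more, of which 12 were among the 15. They numbered 7 against endothelial barcodes with an S6 of 0, 4 after thinning to 2000 UMIs (9170 genes tested) and 2 with DESeq2. Without the library as a replicate block, 0 genes were above and 0 below both references, and 15 were below at an unadjusted p below 0.05. The libraries carry the block because each holds all groups. For the other changes of the count the cause was not tested. Leaving out either library gave shares of 59.5% to 63.6%, depth ratios of 0.983 to 1.22, differences of the *Dcn* ratio from the stromal reference of -4.24 to -1.93 on the log2 scale, sums of parts of 1.09 to 1.16 and *Lrat* at -0.08 to 0.07 (log2) of the equal sum. Against alveolar stromal barcodes the *Dcn* ratio has no value. With 42 endothelial barcodes in library 1, genes at a few UMIs could not be compared there.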

Other observations

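Barcodes led by *Car4* and *Ednrb*, the aerocyte genes, with an S6 of 0.15% or more showed a similar pattern in library 2. There were 89 of them, with a median of 18689 UMIs against 8333 in *Car4* and *Ednrb* barcodes with an S6 below 0.1%. *Dcn* stood at 54.1 CPM and *Tcf21* with *Npnt* at 1583 CPM in them, against 68.6 and 1862 CPM in the dual barcodes. Library 1 held 1 such barcode, with 5913 UMIs.

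Stromal barcodes in which *Dcn* exceeded *Tcf21* and *Npnt* numbered 711 and 442. Their *Dcn* level was 3982 and 3733 CPM, and their median depth was 5892 and 10082.5 UMIs.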
